A study of Mus musculus with 24 samples.

Results

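The genes described here encode the chaperones and proteases that fold, import and degrade proteins inside mitochondria, with *Hspa9* (mt-HSP70, the mitochondrial member of the HSP70 family) at their centre. They were chosen by gene symbol, as *Hspa9*, *Grpel1*, *Grpel2*, *Dnaja3*, *Hspd1*, *Hspe1*, *Trap1*, *Clpp*, *Lonp1* and *Afg3l2*, which are 10 of the 55335 genes counted. Their mRNA was measured by bulk polyA RNA sequencing in cultured primary parietal osteoblasts (OBs), the bone-forming cells of the skull roof. The cultures came from wild-type mice (WT) or from mice heterozygous for the G610C substitution in the proα2(I) chain of type I procollagen (Het), made by the Col1a2 tm1Mcbr allele on the C57BL/6J background. Each genotype was sampled at days 8, 14 and 21 of culture with 4 replicates, which gave 24 libraries. All cultures received the same osteogenic medium with an ascorbic acid derivative, and carried no other allele or agent. The mutation is present in every cell of the animal, not in osteoblasts alone.

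Cells were taken from young pups and pooled over several pups of a genotype. The study's methods describe 2 separate experiments that differed in plating density and in oxygen during expansion, and the labels do not say which replicate came from which. P-values therefore measure the spread between these culture wells. By the methods some wells of a group share a pool of pups, as do wells of different days, so they are not independent preparations. The methods also describe fewer wells per genotype and day than the 4 replicates labelled. The cultures also hold cells that make no collagen, and in such bulk samples fewer cells of a type and less RNA per cell cannot be told apart.

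Most mitochondrial proteins are made in the cytosol and enter the organelle unfolded. mt-HSP70 pulls them through the inner membrane and helps them to fold, together with its J-protein partners and with the nucleotide exchange factors GRPEL1 and GRPEL2. HSP60 and HSP10, encoded by *Hspd1* and *Hspe1*, form the chamber in which many of these proteins complete folding. TRAP1 is the mitochondrial HSP90. LONP1 and CLPP degrade matrix proteins, and AFG3L2 is a protease of the inner membrane. Transcripts of this group are the classical readout of the mitochondrial unfolded protein response (mt-UPR).

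The total count per library ranged from 17140202 to 59734231, with a median of 48340136. The 6 libraries of replicate 1 were the shallowest, with 17140202 to 25825762 counts. Replicate 1 also stood apart in expression. Deviations from the group means had a median correlation of 0.462 between WT and Het libraries of the same number at the same day. Between libraries of other numbers it was −0.084. Among replicates 2 to 4 these medians were 0.442 and 0.335, so most of the contrast came from replicate 1. Results that rest on replicate 1 are given with and without it. Levels are given as a relative quantity (RQ), which is a gene's count over a per-library scale. The scale is the geometric mean of the counts of 4 housekeeping genes, *Sdha*, *Mrfap1*, *Actb* and *Actg1*. Changes are log2 fold changes from edgeR's quasi-likelihood test on the counts with the same scale, with Benjamini-Hochberg adjustment over all genes tested, and were called at an adjusted p under 0.05. All 10 genes passed the filter on low counts in every comparison.

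Each gene had 1 entry in the annotation (GENCODE release 21 on GRCm38). *Hspd1* (chromosome 1, 55077835 to 55088243, minus strand) and *Hspe1* (chromosome 1, 55088132 to 55091307, plus strand) stand head to head and share 112 bases. *Dnaja3* (chromosome 16, 4639989 to 4707695) shares 313 exonic bases in all with *Coro7* on the opposite strand and *Vasn* on the same strand, and *Vasn* had 184762 counts over all libraries against 53515 for *Dnaja3*. *Grpel1* shares 411 exonic bases with *Tada2b*, and *Trap1* shares 54 with *Dnase1*, both on the opposite strand. *Tada2b* had 18053 counts over all libraries against 49810 for *Grpel1*. Reads from the shared bases of these pairs may be split between the partners. The values of *Dnaja3*, *Grpel1*, *Trap1*, *Hspd1* and *Hspe1* carry that uncertainty. *Lonp1* (chromosome 17, 56614297 to 56626887), *Clpp* (chromosome 17, 56990305 to 56996188) and *Trap1* (chromosome 16, 4039971 to 4077827) were the others for which a promoter sequence is shown next.

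Promoter windows of 300 bases, 250 before and 50 after the start, were available from RefSeq (GRCm38.p6) for 7 of the 10 genes. They are shown because the mt-UPR and heat shock are often discussed through short elements of these promoters, which were searched on both strands. The C/EBP-ATF composite element TGATGNAA was in none of the 8 windows of the 7 genes and in 3.97% of all 32851 windows. *Hspa9*, *Grpel2* and *Afg3l2* had no window, so their promoters were not searched for any element. The ATF/CREB octamer TGACGTNA was in the windows of *Trap1* and *Lonp1* and in 2.93% of all windows. The heat shock element core TTCNNGAA was in the windows of *Hspe1* and *Clpp* and in 1 window of *Hspd1*, but not in the other window of *Hspd1*. It was in 8.52% of all windows. The matches of *Hspd1* and *Hspe1* are the same bases read from either strand. Capitals mark the matches, which are descriptions of letters and not evidence of binding.
Hspe1, chr1:55088053-55088082, plus strand: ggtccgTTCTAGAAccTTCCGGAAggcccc
Hspd1, chr1:55088053-55088082, minus strand: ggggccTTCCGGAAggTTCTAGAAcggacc
Clpp, chr17:56990284-56990313, plus strand: ccgggtgttgtagTTCCGGAAgccaagccg
Trap1, chr16:4077839-4077868, minus strand: gtcgcgcgccaTGACGTCActgagccgccc
Lonp1, chr17:56626892-56626921, minus strand: gcgagcagagaTGACGTAAgtgcggtgcgc

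Levels were compared between genes per kb of exon. Over all 24 libraries the mean RQ per kb was highest for *Hspd1* at 0.153, followed by *Hspe1* and *Hspa9*, both at 0.119. *Trap1* followed at 0.0533 and *Clpp* at 0.0354. *Lonp1* (0.028), *Grpel1* (0.0278) and *Dnaja3* (0.0267) were close to each other on this scale. *Afg3l2* (0.0108) and *Grpel2* (0.00526) had the lowest RQ per kb, so that of the exchange factors *Grpel1* was the more abundant. The order at the top depended on the group. *Hspd1* led in WT OBs at day 8 with an RQ per kb of 0.189, against 0.0997 for *Hspa9*. In Het OBs *Hspa9* led at day 14 with 0.171 against 0.164 for *Hspd1*, a gap within the spread of the replicates. In Het OBs at day 21 *Hspa9* led with 0.149 against 0.129 for *Hspd1*.

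**Figure D1:**
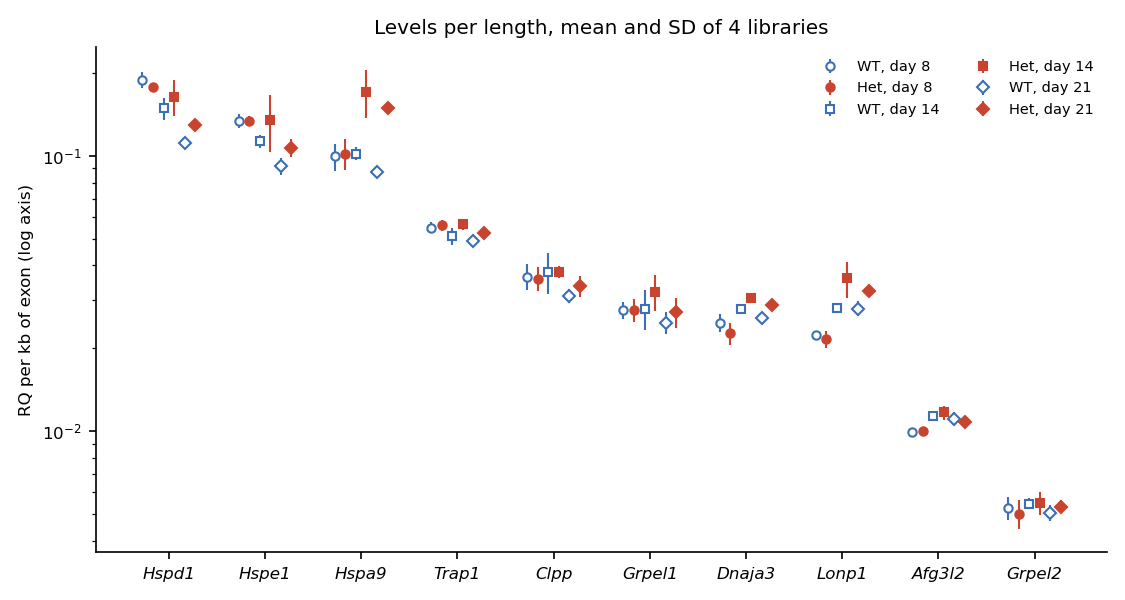
Mean RQ per kb of exon (log axis) of the 10 genes in each genotype and day, with bars for the SD of 4 libraries. *Hspa9* is the gene whose Het points at days 14 and 21, at 0.171 and 0.149, stand farthest above its WT points.

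*Hspa9* (ENSMUSG00000024359.10, minus strand of chromosome 18, GRCm38, 34937414 to 34954357), whose exons overlap no other gene, was upregulated in Het OBs at days 14 and 21. In WT OBs at day 14 the RQ of *Hspa9* in replicates 1 to 4 was 0.476, 0.431, 0.423 and 0.435. In Het OBs at day 14 it was 0.56, 0.914, 0.774 and 0.707. All Het libraries lay above all WT libraries at that day, and replicate 1 was the lowest of the Het libraries. At day 21 WT libraries had an RQ of *Hspa9* of 0.383, 0.38, 0.39 and 0.358, and Het libraries had 0.632, 0.636, 0.673 and 0.626. The Het libraries again lay above all WT libraries, with little spread within either genotype. Over both days the log2 fold change of *Hspa9* was 0.75 (SE 0.07, 95% interval 0.60 to 0.91, adjusted p = 2.6e-05), a 1.69-fold increase that was seen in 8 of 8 pairs of the same number and day. Within replicate 1, with 1 library per group, the Het to WT ratio was 1.18 at day 14 and 1.65 at day 21. Within replicates 2 to 4 it was 1.86 at day 14 and 1.71 at day 21. *Hspa9* was also called when any of the 16 libraries was left out, with an adjusted p of at most 0.000142. Taken alone, day 21 gave 0.76 (adjusted p = 0.00148) and day 14 gave 0.74, which missed the threshold (adjusted p = 0.0786).

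**Figure D2:**
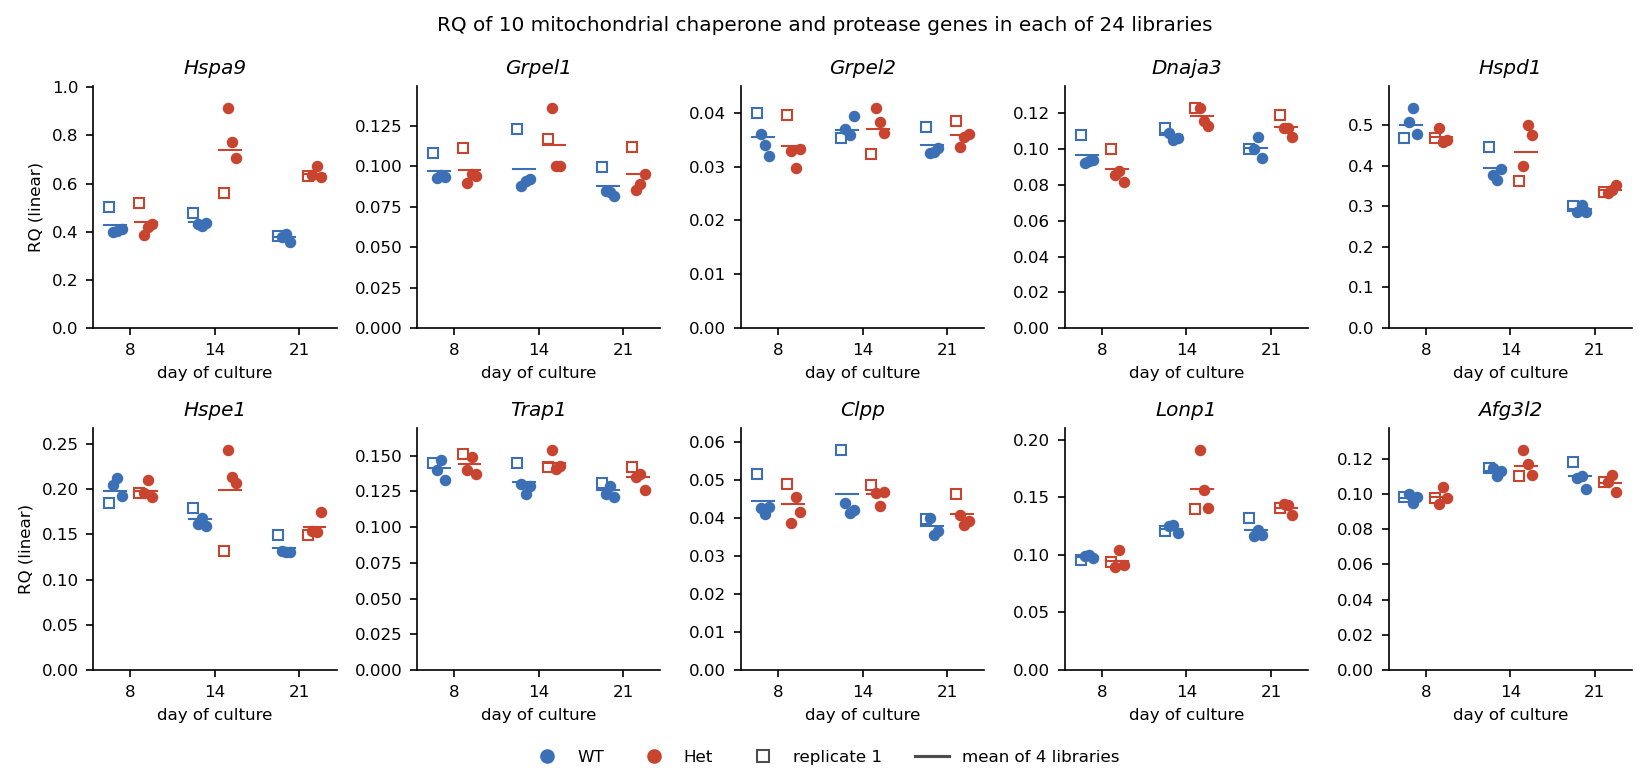
RQ of the 10 genes in each library, by genotype and day, where each point is 1 library, open squares mark replicate 1 and lines mark the mean of 4 libraries. For *Hspa9* the Het libraries at days 14 and 21 (0.56 to 0.914) lie above all WT libraries at those days (0.358 to 0.476), while the genotypes overlap at day 8.

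In all, 3 of the 10 genes were higher in Het OBs at days 14 and 21 and none was lower, where 7.26% of 19839 genes were higher and 8.88% lower, 16.1% in all. The median log2 fold change of the 10 genes was 0.16 and that of all genes tested −0.05. Values were above 0 for 9 of the 10 genes and for 40.7% of all genes. *Hspa9* and *Lonp1* were the 2 genes whose WT and Het libraries did not overlap, a pattern found upward in 0.398% and downward in 0.524% of all genes. The count of higher genes changed with the settings. It was 7 with TMM, where the median of all genes was 0.00 and 2463 of 19861 genes were higher. With *Sdha* left out of the scale it was 2, beside 1153 of 19879 genes. With the housekeeping scale it was 7 without replicate 1 and 1 without replicate 2, 3 or 4. Over all genes 3308 of 19263 were higher without replicate 1, and 147, 122 and 76 without replicate 2, 3 and 4.

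*Lonp1*, the main ATP-dependent protease of the matrix, had an RQ at day 14 of 0.121, 0.125, 0.126 and 0.119 in WT libraries, against 0.14, 0.191, 0.156 and 0.141 in Het libraries. At day 21 the RQ of *Lonp1* was 0.132, 0.116, 0.122 and 0.117 in WT and 0.141, 0.144, 0.143 and 0.135 in Het. All Het libraries lay above all WT libraries, but by less than for *Hspa9*. The log2 fold change of *Lonp1* was 0.28 (SE 0.06, 95% interval 0.15 to 0.41, adjusted p = 0.00738). *Dnaja3*, a J-protein that stimulates mt-HSP70, had an RQ at day 14 of 0.112, 0.109, 0.105 and 0.106 in WT libraries, against 0.123, 0.123, 0.116 and 0.113 in Het libraries. At day 21 it was 0.1, 0.0999, 0.107 and 0.0948 in WT and 0.119, 0.112, 0.112 and 0.107 in Het. The Het libraries of *Dnaja3* were higher in 8 of 8 pairs but the ranges overlapped, with a log2 fold change of 0.15 (SE 0.04, adjusted p = 0.0141). Without *Sdha* in the scale *Dnaja3* was not called (adjusted p = 0.0668).

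The calls of *Lonp1* and *Dnaja3* held when any of the 16 libraries was left out, with adjusted p of at most 0.0193 and 0.033. They did not hold when all 4 libraries of replicate 2, 3 or 4 were left out. The adjusted p of *Lonp1* was then 0.0599, 0.0844 and 0.0957, and that of *Dnaja3* 0.133, 0.0862 and 0.128. *Hspa9* was still called in each case, with log2 fold changes of 0.69, 0.73 and 0.75.

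The chaperonin genes did not pass edgeR's test with the housekeeping scale, while with TMM, size factors or the total count both were called higher. DESeq2's Wald test called *Hspd1* but not *Hspe1*. At day 14 WT libraries had an RQ of *Hspd1* of 0.445, 0.377, 0.364 and 0.392, and Het libraries had 0.362, 0.398, 0.501 and 0.475. At day 21 it was 0.301, 0.286, 0.303 and 0.287 in WT and 0.336, 0.332, 0.339 and 0.352 in Het. Replicate 1 at day 14 was the pair in which Het was lower. With day 21 taken alone *Hspd1* was not called, where 265 of 18682 genes were higher. The log2 fold change of *Hspd1* was 0.17 (SE 0.06, 95% interval 0.04 to 0.31, adjusted p = 0.0725). In *Hspe1* the day 14 pair of replicate 1 was again the exception, with an RQ of 0.179, 0.161, 0.168 and 0.159 in WT libraries, against 0.132, 0.243, 0.213 and 0.207 in Het libraries. At day 21 the RQ of *Hspe1* was 0.149, 0.131, 0.13 and 0.13 in WT and 0.149, 0.154, 0.153 and 0.175 in Het. Its log2 fold change was 0.24 (SE 0.09, 95% interval 0.05 to 0.43, adjusted p = 0.082). The day 14 Het to WT ratio of *Hspe1* was 0.736 within replicate 1 and 1.36 within replicates 2 to 4, and that of *Hspd1* 0.814 and 1.21. Without replicate 1, *Hspe1* (0.37, adjusted p = 0.000104) and *Hspd1* (0.25, adjusted p = 0.00216) were called, among 7 of the 10 genes. Leaving out the Het day 14 library of replicate 1 alone was enough to call *Hspd1* (adjusted p = 0.013) and *Hspe1* (adjusted p = 0.00209). Leaving out its WT day 14 partner called *Hspd1* (adjusted p = 0.0304) and *Trap1* (adjusted p = 0.0261).

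The other 5 genes were not called either by edgeR with the housekeeping scale and all libraries. *Trap1* and *Grpel1* were called higher with TMM, size factors or the total count, and without replicate 1. *Trap1* was also called with DESeq2's Wald test, and *Grpel2* with the total count. *Trap1* had an RQ of 0.121 to 0.145 in WT and 0.126 to 0.154 in Het OBs over days 14 and 21 (log2 fold change 0.12, 95% interval 0.03 to 0.21, adjusted p = 0.0644). *Grpel1*, the main nucleotide exchange factor, ranged from 0.0818 to 0.123 in WT and from 0.0855 to 0.136 in Het (0.16, 95% interval −0.02 to 0.35, adjusted p = 0.21). Its paralog *Grpel2* had a log2 fold change of 0.04 (95% interval −0.07 to 0.15, adjusted p = 0.648). *Clpp*, the peptidase of the ClpXP protease, had 0.06 (95% interval −0.09 to 0.21, adjusted p = 0.609). *Afg3l2* had −0.01 (95% interval −0.09 to 0.08, adjusted p = 0.946).

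At day 8 the genotypes overlapped for all 10 genes and none was called, as was the case for all 18222 genes tested (0%). Over all genes 1.19% had all Het libraries above all WT libraries at day 8, and 3.61% had them below. With edgeR 1817 genes had an unadjusted p under 0.05 at that day, and DESeq2's Wald test called 191 higher and 240 lower, among them none of the 10. The RQ of *Hspa9* at day 8 was 0.502, 0.4, 0.405 and 0.413 in WT and 0.521, 0.388, 0.418 and 0.433 in Het. Replicate 1 was the highest in each genotype, and the log2 fold change was 0.03 (SE 0.11, 95% interval −0.22 to 0.29, adjusted p = 0.965). Over the 10 genes the log2 fold changes at day 8 ranged from −0.13 to 0.03.

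The difference between the genotype effect at days 14 and 21 and that at day 8 was tested directly. For *Hspa9* it was 0.72 (SE 0.14, 95% interval 0.43 to 1.01, adjusted p = 0.0338), and *Hspa9* was the 1 gene of the 10 called, where 0.171% of 20434 genes were called, 0.166% upward and 0.00489% downward. The size of the difference for *Hspa9* stayed between 0.64 and 0.81 in all 28 fits that left out a library or a replicate, but the call did not always hold. It was lost without *Sdha* in the scale (adjusted p = 0.0711) and without replicate 2, 3 or 4 (adjusted p = 0.696, 1 and 1), and it held in 9 of 24 omissions of 1 library. The 15 omissions that lost it were all libraries of replicates 2 to 4, with an adjusted p of up to 0.141 without the Het day 8 library of replicate 2. Over all genes, 3 were called upward without replicate 2, 1 without replicate 3 and 0 without replicate 4. Without replicate 1 the difference for *Hspa9* was 0.81 (adjusted p = 5.97e-05). *Lonp1* (0.33) and *Dnaja3* (0.28) were not called, each with an adjusted p of 0.336. Without replicate 1, 5 of the 10 genes were called, where 772 of 19656 genes were called higher and 156 lower. The 5 were *Hspa9*, *Lonp1* (0.38, adjusted p = 0.039), *Dnaja3* (0.27, adjusted p = 0.0185), *Hspd1* (0.37, adjusted p = 0.0257) and *Hspe1* (0.40, adjusted p = 0.00927). The genotype effect at day 21 did not differ from that at day 14 by this test for any of the 10 genes, with differences from −0.15 to 0.11. No gene was called there (0%), with 473 genes at an unadjusted p under 0.05 and 1 called by DESeq2's Wald test.

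**Figure D3:**
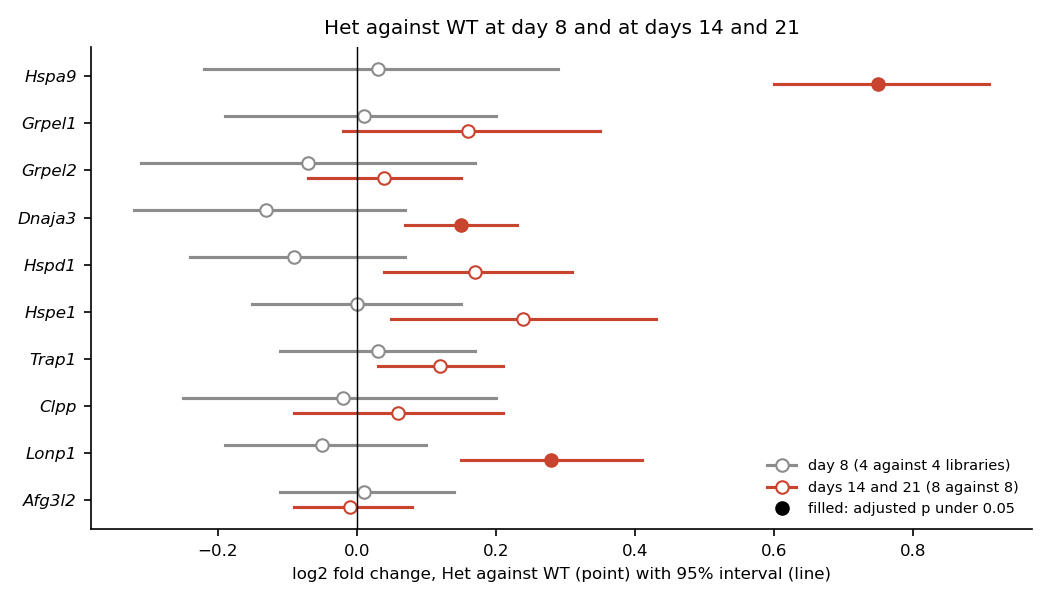
Log2 fold change of Het against WT (points, filled where called) with 95% intervals (lines) for the 10 genes, at day 8 and at days 14 and 21. *Hspa9* moves from 0.03 at day 8 to 0.75 at days 14 and 21, and the other genes stay between −0.13 and 0.28.

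Ratios of counts within a library do not depend on the scale. The ratio of *Hspa9* to *Hspd1* counts was 1.07 to 1.16 in WT and 1.49 to 2.29 in Het OBs at day 14. At day 21 it was 1.25 to 1.33 in WT and 1.78 to 1.99 in Het. The genotypes did not overlap at either day, so *Hspa9* was higher in Het relative to the chaperonin as well as to the housekeeping genes. At day 8 the ratio was 0.747 to 1.07 in WT and 0.788 to 1.12 in Het, which overlap. The ratio of *Hspa9* to its exchange factor *Grpel1* at day 14 was 3.87 to 4.91 in WT and 4.78 to 7.72 in Het, with an overlap at the replicate 1 library of Het. At day 21 it was 3.86 to 4.64 in WT and 5.62 to 7.57 in Het, with no overlap. The ratio of *Hspd1* to *Hspe1*, whose products work together, was 2.01 to 2.32 in WT and 2.01 to 2.25 in Het OBs at day 21. That ratio had its widest range in Het OBs at day 14, from 1.64 to 2.75.

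**Figure D4:**
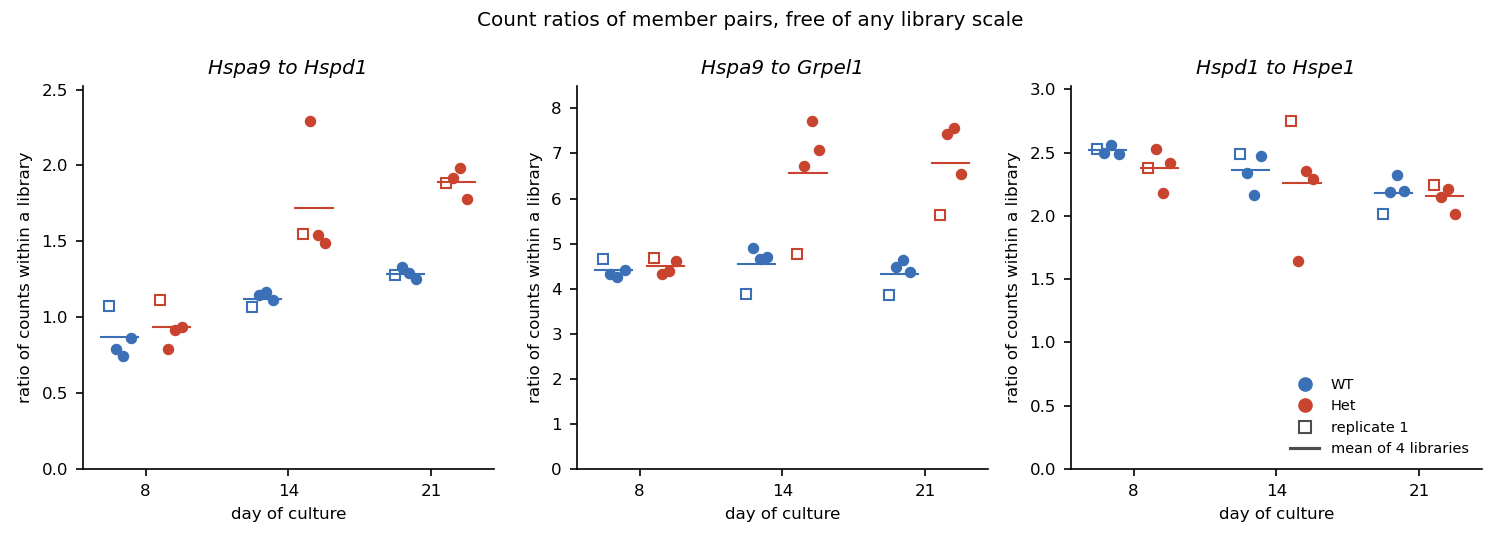
Ratios of counts for 3 pairs of the genes in each library, by genotype and day, with open squares for replicate 1 and lines for the mean of 4 libraries. The ratio of *Hspa9* to *Hspd1* is 1.49 to 2.29 in Het and 1.07 to 1.16 in WT OBs at day 14, and the genotypes overlap at day 8.

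The genes also changed as the cultures matured, in different directions. Averaged over the genotypes, *Lonp1* was higher at days 14 and 21 than at day 8 by 0.49 on the log2 scale (SE 0.05, adjusted p = 1.43e-08). Its RQ at day 8 was 0.0954, 0.0991, 0.0996 and 0.097 in WT and 0.0936, 0.0891, 0.104 and 0.0916 in Het, and all later libraries were above these, as for 11% of all genes (2.7% had them below). *Hspa9* (0.29, adjusted p = 0.00127), *Dnaja3* (0.24, adjusted p = 1.89e-05) and *Afg3l2* (0.18, adjusted p = 5.11e-05) were higher too. *Hspd1* fell by 0.42 on the log2 scale (SE 0.05, adjusted p = 3.19e-07). Its RQ at day 8 was 0.467, 0.508, 0.542 and 0.479 in WT and 0.467, 0.492, 0.458 and 0.463 in Het, and the ranges of the early and late libraries overlapped. *Hspe1* fell by 0.28 (adjusted p = 0.00177) and *Trap1* by 0.09 (adjusted p = 0.0348). *Grpel1*, *Grpel2* and *Clpp* were not called. So 4 of 10 genes were higher and 3 lower, where 40.9% of all genes were higher and 17.4% lower, 58.3% in all. The call of *Trap1* was lost in 9 of 24 omissions of 1 library, with an adjusted p of up to 0.0817 without the WT day 8 library of replicate 3.

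The median of all genes in this comparison was 0.16 with the housekeeping scale and −0.14 with the total count. Of the called genes, *Lonp1* (0.18 to 0.50), *Hspd1* (−0.72 to −0.41), *Hspe1* (−0.58 to −0.27) and *Trap1* (−0.39 to −0.08) kept their direction under all 5 scales, and *Hspa9*, *Dnaja3* and *Afg3l2* did not. With the total count *Lonp1* alone was higher and 7 genes were lower, beside 4339 higher and 8805 lower of all 20287 genes. *Hspa9* was then −0.01, *Dnaja3* −0.06 and *Afg3l2* −0.12. Relative to the median of all genes, *Lonp1* was 0.33 above, *Hspa9* 0.13 above, *Hspd1* 0.58 below (−0.58) and *Hspe1* −0.44. In WT alone the change of *Hspa9* was −0.07, and in Het alone it was 0.65. *Hspd1* was lower in either genotype alone, at −0.55 in WT and −0.29 in Het.

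**Figure D5:**
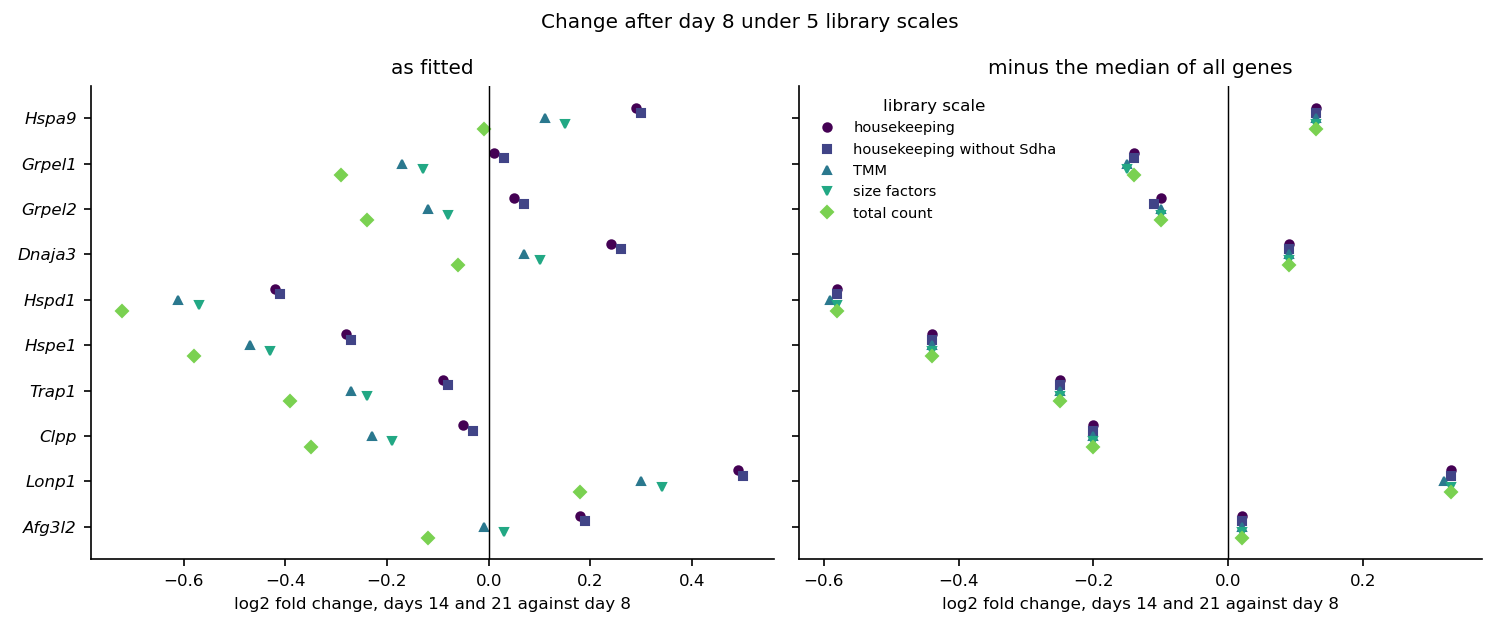
Log2 fold change of days 14 and 21 against day 8 for the 10 genes under 5 library scales, as fitted and after subtraction of the median of all genes. As fitted *Hspa9* runs from −0.01 to 0.30 across scales, whereas relative to all genes the points of each gene nearly coincide.

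Between day 14 and day 21 the chaperonin fell further. *Hspd1* had a log2 fold change of −0.39 (SE 0.06, adjusted p = 0.000691) and was lower in 8 of 8 pairs, and its libraries at the 2 days did not overlap, as for 0.696% of all genes downward and 1.77% upward. *Hspe1* (−0.32, adjusted p = 0.0222) and *Clpp* (−0.23, adjusted p = 0.0278) were lower too, which makes 3 of 10 genes, where 5.94% of all genes were lower and 13.3% higher, 19.3% in all. None of the 10 was higher. *Hspa9* (−0.21, adjusted p = 0.0542) and *Grpel1* (−0.21, adjusted p = 0.112) missed the threshold. With TMM 8 of the 10 were lower, all but *Grpel2* and *Lonp1*, beside 2156 of all 19861 genes. The calls of *Hspe1* and *Clpp* were lost without replicate 2, 3 or 4, which left *Hspd1* alone. *Clpp* was also lost without the day 21 library of WT replicate 3 (adjusted p = 0.0631), WT replicate 4 (0.059) or Het replicate 3 (0.0571), and *Hspa9* was called without the Het day 14 library of replicate 1 (0.00312).

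Of 22 further genes of mitochondrial protein import, folding and degradation, 4 were higher in Het OBs at days 14 and 21 and none was lower, beside 7.26% and 8.88% of all genes. They were the prohibitins *Phb2* (0.24, adjusted p = 0.00116) and *Phb* (0.19, adjusted p = 0.0196), which scaffold inner membrane proteases, the disaggregase *Clpb* (0.16, adjusted p = 0.0393) and the rhomboid protease *Parl* (0.15, adjusted p = 0.0291). The median over the 22 genes was 0.05. *Phb2* alone was called without replicate 2, without replicate 3 or without *Sdha* in the scale, and none was called without replicate 4. With the total count 9 were higher, beside 3289 of all 19845 genes. Without replicate 1, 6 were higher, *Htra2* and *Stoml2* among them, beside 3308 of all 19263 genes. *Clpx* and *Yme1l1* were then lower, beside 4274 of those genes. The inner membrane protease *Yme1l1* had −0.27 (adjusted p = 0.0548) and was called lower with the replicate block, and with DESeq2's Wald test together with *Clpx*. None of the 22 was called at day 8 with all libraries. *Yme1l1* was called lower at that day without replicate 1, beside 2598 of all 18347 genes, and also without the Het library of replicate 1.

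Relatives in other compartments were read for comparison. *Hspa5*, the HSP70 of the endoplasmic reticulum, had a log2 fold change of 0.02 in Het OBs at days 14 and 21 (95% interval −0.16 to 0.19, adjusted p = 0.935), and the cytosolic *Hspa8* had 0.20 (95% interval −0.04 to 0.44, adjusted p = 0.25). Of the HSP90 genes, cytosolic *Hsp90ab1* was called (0.20, adjusted p = 0.0425), and *Hsp90aa1* (0.11) and the endoplasmic reticulum *Hsp90b1* (0.00) were not. The stress transcription factors *Ddit3* (1.20, adjusted p = 3.21e-06), *Atf5* (0.69, adjusted p = 0.000141) and *Atf4* (0.26, adjusted p = 0.0289) were upregulated in the same comparison. *Col1a2*, the mutated gene, was at −0.41 (adjusted p = 0.0268), and as a point substitution leaves its transcript countable it does not check the labels.

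The makeup of the cultures moved with genotype and day. Of 7 macrophage and osteoclast markers the 5 macrophage or leukocyte genes *Cd68*, *Csf1r*, *Adgre1*, *Lyz2* and *Ptprc* were higher in Het OBs at days 14 and 21. The osteoclast genes *Acp5* and *Ctsk* were not called, each at −0.12. The 7 genes had a summed RQ of 5.72 to 6.67 in WT and 7.26 to 15.6 in Het at day 21. At day 14 that sum was 2.05 to 4.4 in WT and 3.06 to 7.01 in Het, and at day 8 it was 0.698 to 0.762 and 0.697 to 1.31. The median log2 fold change of the 7 genes in Het against WT was 1.28 at day 8 and 0.92 at days 14 and 21. At day 8, 6 of the 7 were above 0 and none was called. Of 5 osteoblast markers 4 were lower in Het at days 14 and 21, with a summed RQ of 166 to 183 in WT and 112 to 147 in Het at day 21. *Col1a1*, which encodes the partner chain of the mutated one, made up most of that sum. Its mean RQ at day 21 was 152 in WT and 122 in Het. The median log2 fold change of the 5 osteoblast markers was −0.39 at days 14 and 21 and −0.48 at day 8, where none was called. No marker of either list was at 0 in every library. None of 7 cell cycle genes and none of 7 mitochondrially encoded genes was called between the genotypes at days 14 and 21. All 7 cell cycle genes were above 0 there, with a median of 0.05. None of the 7 mitochondrially encoded genes was above 0, with a median of −0.23, beside 40.7% of all genes above 0. At day 8 the medians were 0.12 and −0.26. With culture age all 7 cell cycle genes fell, from a summed RQ of 1.71 to 2.11 in WT at day 8 to 0.95 to 1.11 in WT at day 21. All 4 chondrocyte markers fell as well, with a median log2 fold change of −1.54 after day 8 and their summed RQ in WT went from 20.3 to 34.3 at day 8 down to between 3.42 and 7.95 at day 21. None of the 4 passed the test between the genotypes, with a median of −1.17 at day 8 and −0.85 at days 14 and 21. Of the macrophage and osteoclast markers 6 of 7 rose after day 8, with a median of 3.49. The part of these shifts in the changes of *Hspa9* and the other genes was not tested.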

How the data were processed

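RNA of cultured OBs (24 libraries) was measured as whole-number read counts per gene, deposited by the authors without normalization. The submitters' processing notes name cutadapt 2.5, STAR 2.73a, Subread with featureCounts 1.6.4 and mm10. The strand rule and the treatment of multi-mapping reads are not given in the sources used here, so reads of overlapping genes may not be told apart. No molecular identifiers were used, and no column of per-sample values was left out (0).

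From the counts, RQ was computed with the 4 housekeeping genes of the study, and edgeR 4.0.16 (R 4.3.3) fitted quasi-likelihood models over all genes that passed filterByExpr, with Benjamini-Hochberg adjustment. DESeq2 1.42.0, TMM, size factors, total count, filters, the replicate block and omission of each replicate were alternatives. The fits were run on simulated counts with known changes. Those counts held no replicate effect and no shared pools of pups, so they do not test how the fits handle these. Depth was 17140202 to 59734231 counts. All 36 pairs of replicates differed by more than sampling noise. Same-numbered WT and Het libraries deviated together (12 correlations, 0.254 to 0.779), so the numbers were taken to pair them. Within replicates 2 to 4 the median was 0.442 for the same number and 0.335 for other numbers, so most of the contrast lies between replicate 1 and the rest. Named genes were the 10 members, a list of 22 related genes, relatives in other compartments, stress factors, marker lists and the genes most like *Hspa9* and *Hspd1*. The members and lists were chosen with earlier results of these data known.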

Additional observations from a re-analysis of the deposited data

Results flagged for a closer look

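In 7 of 60 groups of 4 libraries, 1 library stood apart from the others by Dixon's criterion, which chance gives in about 1 in 20 groups, and 6 of the 7 were replicate 1. In WT OBs at day 8, replicate 1 had an RQ of 0.502 for *Hspa9* (others 0.4 to 0.413), 0.108 for *Grpel1* (others 0.0926 to 0.0947) and 0.108 for *Dnaja3* (others 0.0922 to 0.0941). In WT OBs at day 14 it had 0.123 for *Grpel1* (others 0.0878 to 0.0923) and 0.0579 for *Clpp* (others 0.0413 to 0.044). In WT OBs at day 21 it had 0.149 for *Hspe1* (others 0.13 to 0.131). In Het OBs at day 14 replicate 2 had 0.154 for *Trap1* (others 0.141 to 0.143). The effect of the genotype on *Hspa9* differed between days 14 and 21 and day 8 by 0.72 on the log2 scale, by the test of the difference itself.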

How the results depend on the processing

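The count of the 10 genes called higher in Het at days 14 and 21 was 3. It became 7 with TMM, 7 with size factors, 8 with the total count and 5 with DESeq2's Wald test. It was 0 for day 14 alone, 1 for day 21 alone and 1 to 7 without a replicate. Over all genes, 1440 of 19839 were higher in that comparison, 2463 of 19861 with TMM and 2690 of 19861 with size factors. The total count gave 3289 of 19845, the Wald test 1938 of 19839, day 14 alone 16 of 18368 and day 21 alone 265 of 18682. The count for the difference between the effects was 1, 0 without *Sdha* and 0 to 5 without a replicate. Over all genes 34 were higher and 1 lower there, 31 and 1 without *Sdha*, and 772 and 156 without replicate 1. After day 8, 4 genes were higher (1 with TMM, 1 with the total count, 2 in WT alone). In that comparison 3 were lower (6 with TMM, 5 with size factors, 7 with the total count, 1 in Het alone, 1 for day 14 against day 8). Over all genes 8351 of 20434 were higher, 5601 of 20426 with TMM and 4339 of 20287 with the total count. Those lower were 3560, 6692 with TMM, 6049 with size factors and 8805 with the total count. WT alone had 7195 of 19124 higher, and Het alone had 1900 of 19086 lower. At day 21 against day 14, 3 were lower (8 with TMM, size factors or the total count, 5 with the Wald test, 0 in Het alone, 1 to 6 without a replicate). Over all genes 1178 of 19839 were lower, 2156 of 19861 with TMM, 2120 of 19861 with size factors and 2025 of 19845 with the total count. The Wald test gave 1516 of 19839 and Het alone 12 of 18437. The cause of these moves was not tested.

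Directions turned as follows. *Afg3l2* in Het against WT became 0.05 with TMM, 0.06 with size factors, 0.09 with the total count and 0.04 at day 14 alone. Its range was −0.03 to 0.02 over the fits that left out a library or a replicate. *Hspa9* at day 8 ranged from −0.06 to 0.12 over the fits that left out a library or a replicate. After day 8, *Hspa9* became −0.01 with the total count and −0.07 in WT alone. *Grpel1* became −0.17 with TMM, −0.13 with size factors, −0.29 with the total count, −0.07 in WT alone and −0.09 for day 21 against day 8. The range of *Grpel1* was −0.02 to 0.05 over the fits that left out a library or a replicate. *Grpel2* became −0.12, −0.08 and −0.24 with TMM, size factors and the total count. *Dnaja3* became −0.06 with the total count, *Clpp* 0.07 for day 14 against day 8, and *Afg3l2* −0.01 with TMM and −0.12 with the total count.

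With the replicate block, which pairs WT with Het, the log2 fold change of *Hspa9* at days 14 and 21 was 0.75 (adjusted p = 3.82e-05) and 3 genes were called. *Grpel1* joined the genes lower at day 21 than at day 14, and the block changed no other call of the 10 genes. Over all genes the block raised the calls at day 8 from 0 to 106 higher and 179 lower, and without replicate 1 they were 834 and 2598. Without replicate 1 the calls over all genes at days 14 and 21 were 3308 higher and 4274 lower, against 1440 and 1762 with it, and without replicate 4 they were 76 and 63. Housekeeping genes define the scale, and wells that share a pool of pups limit what the p-values cover.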

Other observations

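Over 14850 genes whose mean count was 50 or more, the log2 RQ of *Cyb5r1* (Pearson r = 0.942), *Got1* (0.938), *Wars* (0.923), *Car6* (0.919) and *Psph* (0.914) followed that of *Hspa9* most closely over the 24 libraries. For *Hspd1* the closest were *Bzw2* (0.974), *Set* (0.966), *Nop58* (0.957), *Hnrnpab* (0.952) and *Rcc1* (0.949). *Hspe1* had r = 0.850 with *Hspd1* and ranked 180, and *Hspd1* had r = 0.088 with *Hspa9*. The libraries share their scale, genotypes and days, so these values are descriptions.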
